A study of Caenorhabditis elegans with 3 samples.

Results

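The nlp genes of Caenorhabditis elegans encode neuropeptide-like proteins, precursors that are cut into short secreted peptides. They were taken here as all genes whose symbol in the deposited gene tables begins with nlp-, which gave 68 genes of the 19194 in the series table and of the 15323 that carry a symbol. Of these, 9 belong to nlp-24 to nlp-34, known from work on the worm epidermis, and 59 are other nlp genes. The symbols nlp-25 and nlp-32 also fall in the epidermal range, but their genes were listed at 0 reads in the series table and have no symbol in the gene tables, so they are not among the 68.

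The libraries were made from poly(A) RNA of the laboratory strain N2. There were 3: mixed-stage embryos, whole L1 larvae (the first larval stage, just after hatching) and whole young adults. RNA strands were sequenced directly on a nanopore device, without conversion to cDNA or amplification, so 1 read stands for 1 RNA strand. Each stage had 1 library, so no difference below has a replicate check, and the intervals compare libraries rather than stages.

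An nlp precursor enters the secretory pathway, is cut by a proprotein convertase at pairs of basic residues, trimmed by a carboxypeptidase and often amidated, and the peptides are stored in dense core vesicles. Most known nlp peptides are made by neurons and act on G protein-coupled receptors in behaviours such as locomotion, egg laying, feeding and sleep. Several genes of nlp-24 to nlp-34 instead encode glycine- and tyrosine-rich peptides of the epidermis, some with antimicrobial activity, and nlp-29 is a widely used reporter of fungal infection and wounding.

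Levels are read shares, the reads of a gene divided by the total of its library, given as reads per 1000000 library reads (RPM) or as a percentage, with the 95% exact binomial interval in parentheses. The libraries held 941707 reads in embryo, 1017061 in L1 and 1611049 in young adult, and a gene with 0 reads could have had a share of up to 3.19, 2.95 or 1.86 RPM in the same order, the limit of 3 reads. A ratio of 2 shares has an exact conditional 95% interval, and a gene with 20 or more reads in the pair of libraries was called higher or lower where the interval's bound nearest to 1 was at least 2-fold away from 1. A ratio against 0 reads is written as at least the value that 3 reads there would give, with the lower bound of the exact interval, which also covers the error of the other count, beside it. Intervals and limits cover counting error only. In RNA from whole animals, fewer cells of a type and less RNA per cell cannot be told apart.

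The 2 groups of nlp genes had different stage profiles. The 59 other nlp genes took 0.127% of the reads in embryo (0.12 to 0.134), 0.641% in L1 (0.625 to 0.657) and 0.166% in young adult (0.16 to 0.173). The 9 epidermal genes took 0.040% in embryo (0.0361 to 0.0443), 0.0736% in L1 (0.0685 to 0.0791) and 0.105% in young adult (0.0997 to 0.11). The joint share of the other nlp genes was thus highest in L1 and that of the epidermal genes in young adult, the epidermal peak resting on nlp-24 and nlp-27.

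A single gene weighs heavily in the profile of the other nlp genes. nlp-77 alone held 64.9% of the other nlp reads in embryo and 51.6% in young adult, and it had its lowest share in L1. Without it the remaining 58 genes took 0.0444% of the reads in embryo (0.0402 to 0.0489), 0.595% in L1 (0.58 to 0.61) and 0.0806% in young adult (0.0763 to 0.0851). Their joint share was 13.4-fold higher in L1 than in embryo (12.1 to 14.8), against 5.05-fold (4.75 to 5.38) with nlp-77. It was 7.37-fold lower in young adult than in L1 (6.94 to 7.84), against 3.85-fold (3.68 to 4.03) with it. Leaving nlp-77 out was chosen after seeing its reads.

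**Figure D1:**
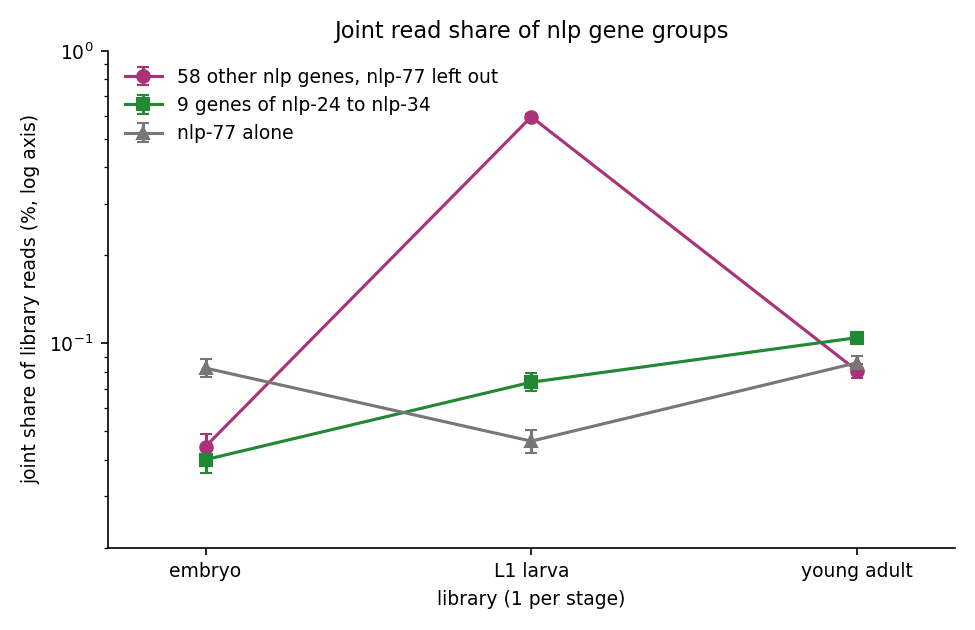
Joint share of library reads (percent, log axis) of the 58 other nlp genes without nlp-77, of the 9 epidermal genes and of nlp-77 alone, in the embryo, L1 and young adult libraries, with bars for 95% exact binomial intervals. The 58 genes are at 0.0444%, 0.595% and 0.0806%, the epidermal genes at 0.040%, 0.0736% and 0.105% (0.0354%, 0.0438% and 0.0355% without nlp-24 and nlp-27), and nlp-77 at 0.0823%, 0.0463% and 0.0858%; the lower nlp-77 share in L1 than in embryo is lost with the TMM and DESeq2 factors.

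The epidermal joint share was 1.84-fold higher in L1 than in embryo (1.62 to 2.09), 1.42-fold higher in young adult than in L1 (1.3 to 1.55) and 2.61-fold higher in young adult than in embryo (2.34 to 2.93). The other nlp genes were 1.31-fold higher in young adult than in embryo (1.23 to 1.41). These directions held under every scaling of the libraries that was tried. They did not all hold without nlp-24 and nlp-27, the 2 epidermal genes with most young adult reads, left out after seeing those reads. The remaining 7 took 0.0354% of the reads in embryo (0.0317 to 0.0394), 0.0438% in L1 (0.0398 to 0.048) and 0.0355% in young adult (0.0327 to 0.0385). Their joint share was 1.24-fold higher in L1 than in embryo (1.07 to 1.43) and 1.23-fold lower in young adult than in L1 (1.09 to 1.4), with a young adult to embryo ratio of 1.0 (0.876 to 1.15), so it was highest in L1. The scaling matters for size: trimmed-mean (TMM) factors move the median log2 ratio of all genes by 0.87 in L1 over embryo, by -0.07 in young adult over L1 and by 0.80 in young adult over embryo, and DESeq2 factors by 0.92, -0.08 and 0.84.

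The balance of the 2 groups within a library does not depend on scaling. Epidermal genes gave 24% of all nlp reads in embryo (21.9 to 26.2), 10.3% in L1 (9.62 to 11) and 38.6% in young adult (37.1 to 40.05). The odds of an epidermal over another nlp read were 5.47-fold higher in young adult than in L1 (4.96 to 6.03) and 2.75-fold lower in L1 than in embryo (2.39 to 3.16). Without nlp-77 the epidermal share of nlp reads was 47.4% in embryo, 11% in L1 and 56.5% in young adult. The L1 library held the lowest epidermal proportion with and without nlp-77. Without nlp-24 and nlp-27 the odds were still 3.12-fold higher in young adult than in L1 (2.73 to 3.57), while the ratio of young adult to embryo odds was 0.765 (0.656 to 0.893).

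Within nlp-24 to nlp-34, 5 genes had their highest share in young adult, 2 in L1 and 2 in embryo. nlp-24, nlp-26, nlp-27, nlp-28 and nlp-33 peaked in young adult, nlp-29 and nlp-34 in L1, and nlp-30 and nlp-31 in embryo. Between L1 and embryo 5 of the 9 were called higher in L1 and 0 lower, where 13.4% of 8382 compared genes were called higher and 33% lower (46.4% either way). Between young adult and L1, 2 of 8 were higher and 2 lower, where 14.5% of 8043 genes were called higher and 14.2% lower (28.7% either way). Between young adult and embryo, 4 of 9 were higher and 3 lower, where 13.2% of 8636 genes were called higher and 29.3% lower (42.5% either way). The median log2 ratio of the epidermal genes was 1.68, 0.68 and 0.50 in these 3 comparisons, beside -1.14, 0.32 and -0.71 for all genes compared.

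The largest part of the young adult epidermal reads came from nlp-24 and nlp-27. nlp-24, whose precursor has also been tied to the feeding response to starvation, had 41.4 (29.4 to 56.6) RPM in embryo, 112 (92.5 to 135) in L1 and 369 (339.6 to 399.6) in young adult. Its young adult share was 3.29-fold higher (2.69 to 4.06) than in L1 and 8.9-fold higher (6.44 to 12.6) than in embryo. Its L1 share was 2.71-fold higher (1.87 to 4.0) than in embryo, a ratio whose lower bound stays under 2, although it passes with each of the other scalings. Its 3 intervals are apart, with young adult highest and embryo lowest.

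nlp-27, a member of the gene cluster around nlp-29, had 4.25 (1.16 to 10.9) RPM in embryo, 188 (162 to 216) in L1 and 322 (295 to 351) in young adult. In L1 its share was 44.2-fold higher (17 to 164) than in embryo and its young adult share 75.8-fold higher (29.4 to 279) than in embryo. The step between young adult and L1 was 1.72-fold higher (1.45 to 2.04) and was not called. Almost all nlp-27 reads thus came from the libraries made after hatching.

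nlp-26 and nlp-28 had 0 reads in embryo. nlp-26 had 24.6 RPM in L1 (15.9 to 36.3) and 118.6 in young adult (102 to 137), and nlp-28 had 34.4 in L1 (24 to 47.9) and 76.3 in young adult (63.5 to 91.1). Against the limit of 3 reads in embryo, nlp-26 was at least 7.72-fold higher (lower bound 5.82) in L1 and at least 37.2-fold higher (lower bound 30) in young adult. nlp-28 was at least 10.8-fold higher (lower bound 8.33) in L1 and at least 24-fold higher (lower bound 19.2) in young adult. Young adult exceeded L1 by 4.82-fold for nlp-26 (3.17 to 7.64), which was called, and by 2.22-fold for nlp-28 (1.51 to 3.33), which was not.

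nlp-30 and nlp-31 ran the other way; nlp-31 encodes peptides with antifungal activity in vitro. nlp-31 had 210.3 (182 to 242) RPM in embryo, 138 (116 to 162) in L1 and 25.4 (18.3 to 34.5) in young adult, and its young adult share was 8.26-fold lower (5.88 to 11.9) than in embryo and 5.41-fold lower (3.79 to 7.86) than in L1. nlp-31 alone gave 52.5% of the epidermal nlp reads in embryo (47.3 to 57.7). Its L1 share was 1.53-fold lower (1.22 to 1.91) than in embryo by library total but 1.2-fold higher (0.959 to 1.5) with TMM factors and 1.24-fold higher with DESeq2 factors. nlp-30 was a low-count gene with 21 reads in embryo, 11 in L1 and 2 in young adult, and its young adult share was 18-fold lower (4.39 to 158) than in embryo.

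nlp-29 and nlp-34 peaked in L1. nlp-29, the infection and wound reporter gene, had 21.2 (13 to 32.8) RPM in embryo, 73.7 (58 to 92.4) in L1 and 26.1 (18.8 to 35.2) in young adult. The L1 share was 3.47-fold higher (2.1 to 6.0) than in embryo, and its young adult share was 2.83-fold lower (1.91 to 4.23) than in L1, which passed the threshold only when the libraries were rescaled. Embryo and young adult overlapped, with a young adult share 1.23-fold higher (0.705 to 2.21) than in embryo. nlp-34 had 26.5 (17.2 to 39.2) RPM in embryo, 86.5 (69.4 to 107) in L1 and 1.86 (0.384 to 5.44) in young adult, and its young adult share was 46.5-fold lower (15.4 to 229.6) than in L1.

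nlp-33 varied least among the 9. It had 74.3 (57.9 to 93.9) RPM in embryo, 69.8 (54.5 to 88.1) in L1 and 106 (90.3 to 123) in young adult, and none of its 3 ratios was called. The L1 share was 1.06-fold lower (0.754 to 1.5) than in embryo by library total, and higher in L1 with each of the other scalings: 1.72-fold with TMM factors, 1.78-fold with DESeq2 factors and 1.27-fold without ribosomal protein and mitochondrial reads.

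**Figure D2:**
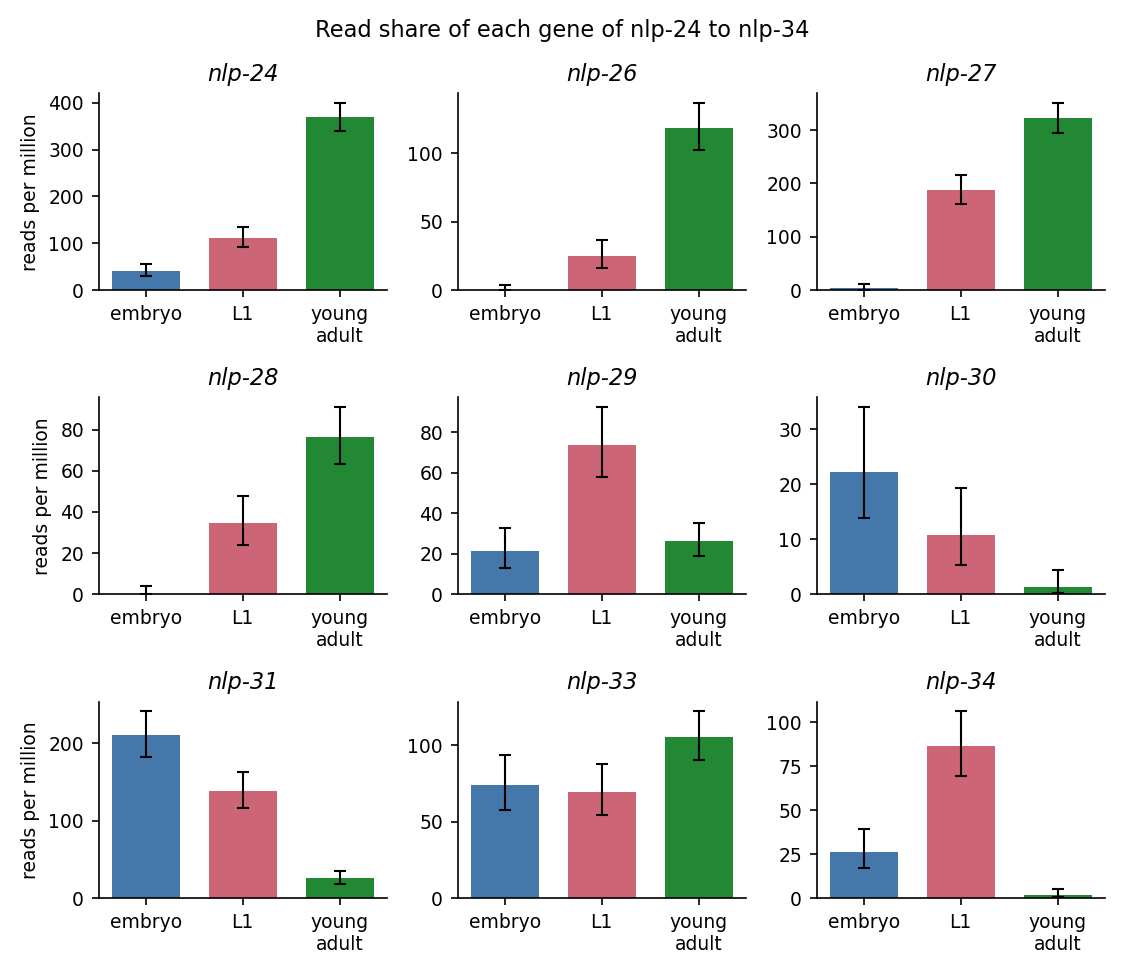
RPM of each of the 9 epidermal nlp genes in the embryo, L1 and young adult libraries, each panel on its own axis, with bars for 95% exact binomial intervals. nlp-24, nlp-26, nlp-27, nlp-28 and nlp-33 are highest in young adult, nlp-29 and nlp-34 in L1, and nlp-30 and nlp-31 in embryo; the L1 and embryo order of nlp-31 and nlp-33 turns with TMM and DESeq2 factors.

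All 9 epidermal genes lie on chromosome V and all have 2 exons and 1 annotated transcript, whereas 10 of the 59 other nlp genes lie on V and 21 have 2 exons. The longest annotated transcript had a median of 354 bases among the 9 (264 to 714) and 591 bases among the 59 (240 to 1275). In the WBcel235 assembly, nlp-24 lies at V:11616376-11616828, nlp-33 at V:11147346-11147737 and nlp-26 at V:19613461-19614534. The other 6 form 1 block.

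That block spans 10.946 kb at V:3978825-3989770 and holds nlp-34 on the minus strand, then nlp-31, nlp-30, nlp-29, nlp-28 and nlp-27 on the plus strand, with no other protein-coding gene between them. The gaps run from 0.92 kb, between nlp-34 and nlp-31, to 3.052 kb, between nlp-29 and nlp-28. Along the plus strand the highest share by library total was in embryo for nlp-31 and nlp-30, in L1 for nlp-29 and in young adult for nlp-28 and nlp-27. This order depends on the scaling, as nlp-31 was highest in L1 with TMM and DESeq2 factors, and nlp-30 was 2.06-fold lower (0.95 to 4.74) in L1 than in embryo, an interval that includes 1. nlp-34, at the far left, peaked in L1 and was called lower in young adult than in embryo, by 14.3-fold (4.35 to 73.8). Both nlp-31 and nlp-30 were called lower in young adult than in embryo, both nlp-28 and nlp-27 at the other end of the plus-strand row were called higher, and nlp-29 between them was called neither. The plus-strand genes are close paralogs whose reads could be assigned to one another, so their single values are uncertain.

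**Figure D3:**
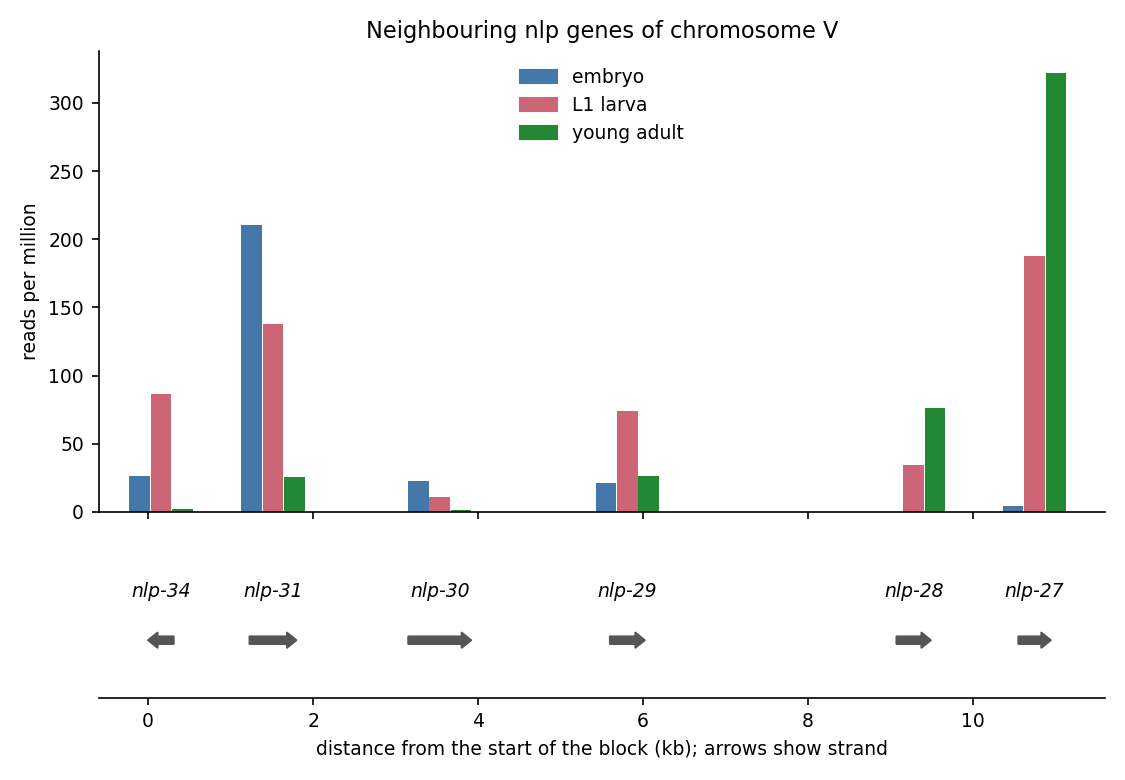
RPM in the embryo, L1 and young adult libraries (bars, left to right) of the 6 nlp genes of the chromosome V block, drawn above a scale map of the genes with arrows for strand and distance in kb from the start of the block. Embryo bars are tallest at nlp-31 (210.3) and nlp-30 (22.3), and young adult bars at nlp-28 (76.3) and nlp-27 (322); the L1 and embryo order of nlp-31 turns with TMM and DESeq2 factors.

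Among the 59 other nlp genes, 52 had their highest share in L1, 5 in young adult and 2 in embryo; nlp-48 counts among the 52 with an estimate that rounds to 0 reads. Over all genes with any read, 26.3% had their highest share in L1. Of the 44 with 20 or more reads in all, 40 were highest in L1, beside 20% of all genes with that many reads. The median other nlp gene had 5 reads in embryo, 56 in L1 and 7 in young adult, and 9, 3 and 7 of the 59 had 0 reads in these libraries. Most genes that reached 20 reads did so through the L1 library, so the counts that follow describe the genes that could be compared.

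Between L1 and embryo 42 could be compared; 34 were called higher in L1, 1 lower and 7 neither, beside 13.4% higher and 33% lower over all genes. The median log2 ratio was 3.73. Between young adult and L1, 42 were compared, 35 were lower in young adult and 1 was higher, beside 14.2% lower and 14.5% higher over all genes, and the median log2 ratio was -3.33. Between young adult and embryo, 27 were compared, 4 were higher and 2 lower, with a median of 0.57. Over all genes 13.2% were higher there, close to the share of these 27, and 29.3% lower. For all nlp genes together, 36 were compared between young adult and embryo, and 8 were higher and 5 lower by library total. With TMM or DESeq2 factors 11 were higher and 4 lower. The shares over all genes moved as well, to 19.6% higher and 17.3% lower with TMM and 20.1% and 16.8% with DESeq2. Of the genes with 20 or more reads in each library, 1 of 3 was higher in L1 than in embryo, beside 6.48% of all genes with that many reads, and 14 of 17 were lower in young adult than in L1, beside 10.2%.

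The genes behind the L1 peak include several with known neurons and behaviours. nlp-12, which encodes cholecystokinin-like peptides of the DVA neuron that act in locomotion, had 13.8 (7.35 to 23.6) RPM in embryo, 493 (450.4 to 538) in L1 and 14.3 (9.05 to 21.4) in young adult. In L1 its share was 35.7-fold higher (20.7 to 67.5) than in embryo, and its young adult share 34.5-fold lower (22.7 to 54.9) than in L1. Embryo and young adult intervals of nlp-12 overlap almost fully.

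Known sleep neurons express nlp-8 and nlp-11, which were among the 14 with most reads. nlp-8, expressed in the sleep-promoting ALA neuron, had 17 (9.71 to 27.6) RPM in embryo, 233 (204 to 265) in L1 and 4.34 (1.75 to 8.95) in young adult, and its young adult share was 53.6-fold lower (25.6 to 135) than in L1. nlp-11, a peptide gene of the sleep neuron RIS, had 14.9 (8.13 to 24.9) RPM in embryo, 237 (208 to 269) in L1 and 13 (8.07 to 19.9) in young adult, with an L1 share 15.9-fold higher (9.32 to 29.6) than in embryo. The orcokinin-like genes nlp-14 and nlp-15 had L1 shares 12-fold higher (6.65 to 23.6) and 14.4-fold higher (8.41 to 26.8) than in embryo. Their young adult shares were 7.44-fold lower (5.08 to 11.2) and 14.4-fold lower (9.42 to 22.9) than in L1.

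nlp-37, now named pdf-2 for its pigment-dispersing factor peptide, had 9.56 (4.37 to 18.1) RPM in embryo, 192 (166 to 221) in L1 and 8.69 (4.75 to 14.6) in young adult, and nlp-3, one of the peptide genes of the egg-laying HSN neurons, had 11.7 (5.83 to 20.9) RPM in embryo, 171 (147 to 198) in L1 and 10.6 (6.15 to 16.9) in young adult. Both were called higher in L1 than in embryo and lower in young adult than in L1. The L1 share of nlp-37 was 20.1-fold higher (10.4 to 44.5) than in embryo and that of nlp-3 14.6-fold higher (7.99 to 29.9). Their young adult and embryo intervals overlap; the adult share is below the embryo share by library total and above it with the other scalings for nlp-37, nlp-3 and nlp-11.

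Among genes with embryo reads, nlp-17, nlp-80 and nlp-21 had the L1 over embryo bounds farthest from 1. nlp-17 had 7.43 (2.99 to 15.3) RPM in embryo, 589 (543 to 638) in L1 and 18 (12.1 to 25.9) in young adult, and its L1 share was 79.2-fold higher (38.2 to 198) than in embryo. nlp-80 had 7.43 (2.99 to 15.3) RPM in embryo, 548 (503 to 595) in L1 and 21.7 (15.1 to 30.2) in young adult and was 73.7-fold higher (35.5 to 184) in L1 than in embryo. nlp-21 had 6.37 (2.34 to 13.9) RPM in embryo, 367 (330.5 to 406) in L1 and 25.4 (18.3 to 34.5) in young adult and was 57.6-fold higher (26.2 to 158) in L1 than in embryo. In young adult, nlp-17 was 32.7-fold lower (22.5 to 49.3), nlp-80 25.2-fold lower (17.9 to 36.6) and nlp-21 14.4-fold lower (10.4 to 20.4) than in L1.

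nlp-20 had 0 reads in embryo, 172 RPM in L1 (148 to 199.5) and 38.5 in young adult (29.5 to 49.3). It was at least 54-fold higher (lower bound 43.5) in L1 and at least 12.1-fold higher (lower bound 9.53) in young adult than in embryo. nlp-1, an AWC olfactory neuron gene whose peptide acts through NPR-11, had 1 read in embryo, 131 in L1 and 24 in young adult. Its young adult share was 8.65-fold lower (5.57 to 14) than in L1, and its ratios to embryo rest on a single embryo read.

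nlp-40 encodes a peptide that is released by the intestine and drives the expulsion step of defecation through the receptor AEX-2. It had 38.2 (26.8 to 52.9) RPM in embryo, 589 (543 to 638) in L1 and 268 (243 to 295) in young adult. The nlp-40 share in L1 was 15.4-fold higher (11 to 22.2) than in embryo, but its young adult share was only 2.2-fold lower (1.94 to 2.49) than in L1, which was called with the other scalings and not by library total. It remained 7.01-fold higher (4.99 to 10.1) in young adult than in embryo, and gave 33.3% of the young adult reads of the other nlp genes without nlp-77 (30.7 to 35.9).

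Without both nlp-77 and nlp-40, the remaining 57 genes were 9.95-fold lower in young adult than in L1 (9.26 to 10.7). They were 13.2-fold higher in L1 than in embryo (11.9 to 14.7). Their young adult share was 1.33-fold higher than in embryo (1.17 to 1.5), against 1.82-fold (1.63 to 2.03) with nlp-40.

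nlp-77 and nlp-36 did not have their highest share in L1. nlp-77, at II:7790591-7791375, had 823 (766 to 883) RPM in embryo, 463 (422 to 507) in L1 and 858 (814 to 905) in young adult. Its L1 share was 1.78-fold lower (1.58 to 2.0) than in embryo by library total, 1.03-fold higher (0.917 to 1.16) with TMM factors and 1.07-fold higher with DESeq2 factors, and its young adult share was 1.85-fold higher (1.67 to 2.06) than in L1. Ensembl now names this gene srlf-1, so its place among neuropeptide genes is by its deposited symbol only. It lies within glr-4 on the opposite strand, which had 8 reads in embryo, 2 in L1 and 2 in young adult. nlp-36 had 59.5 (44.9 to 77.2) RPM in embryo, 69.8 (54.5 to 88.1) in L1 and 113 (97.2 to 131) in young adult; its young adult share was 1.9-fold higher (1.4 to 2.61) than in embryo and was called with TMM and DESeq2 factors only.

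nlp-50 and nlp-4 were exceptions to the L1 peak among genes of few reads. nlp-50 had 31 reads in embryo, 2 in L1 and 0 in young adult, and its L1 share was 16.7-fold lower (4.26 to 144) than in embryo, the only lower call of an nlp gene in that comparison. In young adult it was at least 17.7-fold lower (lower bound 13.5) than in embryo. It lies wholly within agr-1 on the opposite strand at II:6765034-6765893, and whether the counting used strand is not given, so reads of the 2 genes cannot be told apart here. nlp-4 had 1 read in embryo, 0 in L1 and 35 in young adult, and its young adult share was at least 7.37-fold higher (lower bound 5.68) than in L1.

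**Figure D4:**
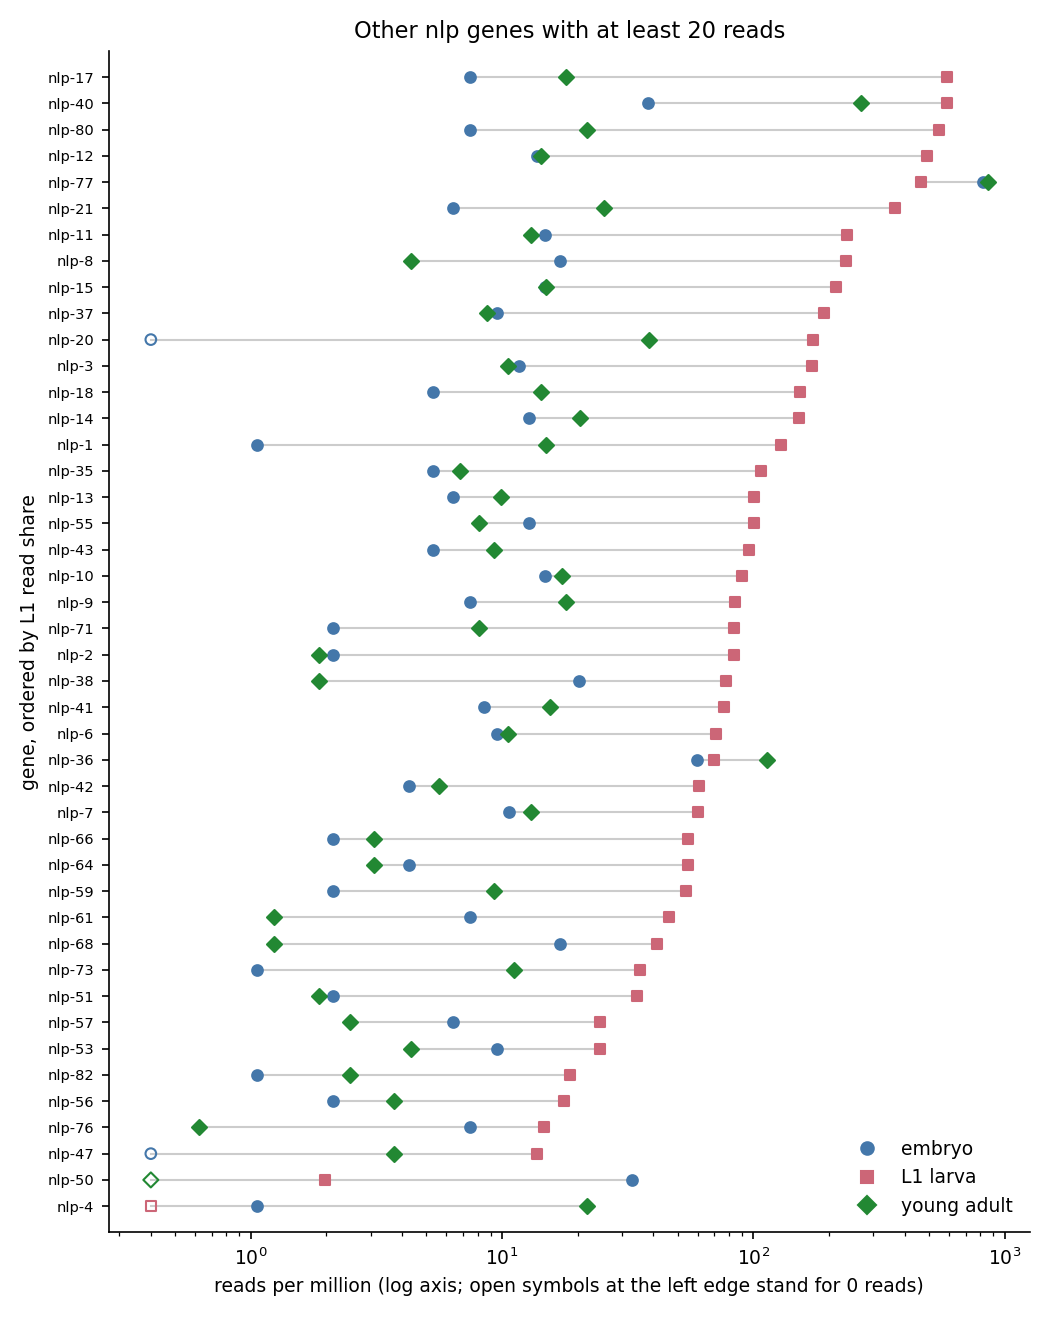
RPM (log axis) of the 44 other nlp genes with 20 or more reads in all, ordered by L1 share, with a circle for embryo, a square for L1 and a diamond for young adult; open symbols at the left edge stand for 0 reads. L1 is the highest point in 40 of the 44; nlp-77, nlp-36, nlp-4 and nlp-50 are the exceptions, and the embryo and L1 order of nlp-77 turns with TMM and DESeq2 factors.

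Beyond the 14 other nlp genes with most reads, the remaining 45 had 0 to 31 reads in embryo, 0 to 156 in L1 and 0 to 35 in young adult, with medians of 3, 25 and 4. L1 was highest in 40 of these 45. Of the 45, 15 had under 20 reads in all. Overlaps on the opposite strand concern 18 of the 59 and 2 of the 9 genes. nlp-2 and nlp-17, for example, overlap T01B6.1 (20, 2 and 0 reads in embryo, L1 and young adult) and seld-1 (18, 11 and 11 reads). Neither of these neighbours had most reads in L1, but C33A12.19, which overlaps nlp-35 by 68 bases, did. C33A12.19 had 4, 274 and 63 reads, and nlp-35 had 5, 109 and 11. As the use of strand is not given, the part of such neighbours in the nlp counts was not tested.

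Isoforms were compared through the leading isoform, the row holding most reads of a gene with 20 or more reads in each of 2 libraries. Between young adult and L1 the leader was the same row in 21 of 24 genes, and the intervals of its share lay apart in 3. For nlp-28 the leading isoform held 74% of reads in young adult (65.3 to 81.5) and 45.7% in L1 (28.8 to 63.4). For nlp-29 it held 78.6% in young adult (63.2 to 89.7) and 50.7% in L1 (38.9 to 62.4). The third was nlp-40, named here after its values were seen, at 22.2% in young adult (18.4 to 26.4) and 34.9% in L1 (31.1 to 38.9). That row led over the 2 libraries together but not in young adult, where another row held 38.9% (34.3 to 43.7). The nlp-18 leader held 60.9% in young adult (38.5 to 80.3) and 37.2% in L1 (29.6 to 45.3), and the nlp-1 leader 50% (29.1 to 70.9) and 70.2% (61.6 to 77.9), with intervals that overlap.

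Between L1 and embryo all 8 comparable genes kept their leading isoform, and between young adult and embryo 5 of 7 did, with 0 intervals apart in either. Most nlp isoform rows carry a read identifier rather than an annotated transcript name, 867 of 940, so they could be counted but not described. Rows with an annotated name held 4.11% of nlp reads in embryo, 14.1% in L1 and 8.51% in young adult, against 17%, 15.4% and 17.9% over all genes. In the epidermal group they held 0.838%, 0.997% and 2.81%.

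The joint share of the genes that process neuropeptides was highest in L1, although only 5 of the 11 genes were themselves highest there, 5 being highest in embryo and 1 in young adult. The 11 genes listed for peptide processing took 0.046% of the reads in embryo (0.0418 to 0.0505), 0.398% in L1 (0.385 to 0.41) and 0.0235% in young adult (0.0212 to 0.026). Jointly they were 8.65-fold higher in L1 than in embryo (7.83 to 9.57) and 16.9-fold lower in young adult than in L1 (15.2 to 18.8). Between L1 and embryo 5 of 9 compared were higher and 1 lower, beside 13.4% and 33% over all genes. In young adult over L1, 0 of 9 were higher and 5 lower, beside 14.5% and 14.2%, and between young adult and embryo, 1 of 10 was higher and 3 lower, beside 13.2% and 29.3%. The gene called lower in L1 than in embryo, named after its values were seen, was kpc-1, a proprotein convertase, with 131 RPM in embryo, 35.4 in L1 and 13.7 in young adult.

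egl-21, the carboxypeptidase that trims peptide intermediates, had 51 RPM in embryo, 1403 in L1 and 60.2 in young adult. sbt-1, a chaperone of the proprotein convertase EGL-3, had 42.5 RPM in embryo, 1112 in L1 and 50.9 in young adult. pghm-1, which acts in amidation, had 14.9 RPM in embryo, 607 in L1 and 24.8 in young adult. Their L1 shares were 27.5-fold higher (20.6 to 37.5), 26.2-fold higher (19.1 to 36.8) and 40.8-fold higher (24.1 to 75.1) than in embryo.

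The joint share of the dense core vesicle genes, most of it from unc-108, was not higher in L1 than in embryo by library total. Of the 12 genes, 7 were themselves highest in L1, 5 in embryo and 0 in young adult. The 12 listed took 0.0796% of the reads in embryo, 0.0733% in L1 and 0.0254% in young adult. The L1 to embryo ratio of 0.92 (0.83 to 1.02) became 1.68 with TMM factors and 1.74 with DESeq2 factors. It was 1.25 (1.12 to 1.38) without ribosomal protein and mitochondrial reads. Between L1 and embryo 1 of 7 compared was higher and 1 lower, beside 13.4% and 33% over all genes, so the share called higher was close to that of all genes. In young adult over L1, 0 of 6 were higher and 2 lower, beside 14.5% and 14.2%, and between young adult and embryo, 0 of 5 were higher and 3 lower, beside 13.2% and 29.3%. ida-1, a dense core vesicle membrane protein, was the one called higher, with 58.4 RPM in embryo, 234 in L1 and 20.5 in young adult and an L1 share 4.01-fold higher (2.98 to 5.47) than in embryo. hid-1, which acts in vesicle maturation, was called lower, with 81.8 RPM in embryo, 19.7 in L1 and 7.45 in young adult. unc-108, a Rab2 protein with most reads of the list, had 570.2 RPM in embryo, 379.5 in L1 and 192 in young adult. It gave 537 of the list's 750 reads in embryo, 386 of 745 in L1 and 310 of 409 in young adult. The joint ratios of this list thus follow unc-108 more than its other genes.

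Receptors with known or proposed nlp ligands were near the counting floor. The 12 listed had 28 reads in embryo, 46 in L1 and 11 in young adult in all, and 0 could be compared singly. npr-12, trhr-1 and ckr-2 had most of these reads. npr-12 had 8 reads in embryo, 10 in L1 and 3 in young adult.

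The neuron markers, general neuronal genes chosen apart from peptides, took 0.107% of the reads in embryo (0.10 to 0.114), 0.0796% in L1 (0.0743 to 0.0853) and 0.0399% in young adult (0.0369 to 0.0431). Their joint L1 to embryo ratio was 0.746 (0.679 to 0.819) by library total, 1.37 with TMM factors, 1.41 with DESeq2 factors and 1.01 without ribosomal protein and mitochondrial reads. Of 11 compared, 0 were higher and 2 lower in L1 than in embryo, where 13.4% of all genes were higher and 33% lower. In young adult over L1, 0 of 11 were higher and 5 lower, beside 14.5% and 14.2%, and in young adult over embryo 0 of 9 were higher and 6 lower, beside 13.2% and 29.3%. The vesicle gene snb-1 had 465 RPM in embryo, 332 in L1 and 244 in young adult, unc-119 211 RPM in embryo, 44.2 in L1 and 19.9 in young adult, and the SNARE gene ric-4 56.3 RPM in embryo, 149 in L1 and 17.4 in young adult. Their part in the nlp ratios was not tested.

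The epidermis markers took 0.139% of the reads in embryo (0.132 to 0.147), 0.0524% in L1 (0.0481 to 0.057) and 0.0394% in young adult (0.0363 to 0.0425). Of 12 compared, 0 were higher and 8 lower in L1 than in embryo, beside 13.4% and 33% over all genes. The same counts of 12 were found in young adult over embryo, beside 13.2% and 29.3%, and in young adult over L1 0 of 8 were higher and 1 lower, beside 14.5% and 14.2%. From low to high, their joint share ran young adult, L1, embryo, and that of all 9 epidermal nlp genes embryo, L1, young adult. lin-26, a regulator of epidermal fate, had 363 RPM in embryo, 121 in L1 and 113 in young adult, pah-1, an epidermal phenylalanine hydroxylase, 70.1 RPM in embryo, 147 in L1 and 127 in young adult, and vab-10, an epidermal attachment gene, 191 RPM in embryo, 76.7 in L1 and 49.7 in young adult. The part of epidermal RNA content in the nlp ratios was not tested.

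The caenacins, a related family of epidermal antimicrobial peptide genes of which 9 of 11 symbols were found, took 0.0155% of the reads in embryo, 0.0173% in L1 and 0.00832% in young adult. They too had mixed profiles. cnc-10 was 4.55-fold lower (3.02 to 7.04) in young adult than in L1. cnc-8 was 8.02-fold higher (3.74 to 20.5) in young adult than in embryo, and cnc-4 19.2-fold lower (7.74 to 61.3).

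Among 18 genes reported to control nlp-29, rack-1 held most reads. It encodes a ribosome-associated protein, and had 1559.9 RPM in embryo, 5407 in L1 and 3046 in young adult. nipi-3, a kinase-like protein needed for nlp-29 induction by infection, had 110.4 RPM in embryo, 137 in L1 and 19.9 in young adult. dcar-1, the epidermal receptor upstream of nlp-29, had 56.3 RPM in embryo, 146 in L1 and 38.5 in young adult. While rack-1, nipi-3 and dcar-1 were highest in L1, most of the list was not. Of the 16 genes with reads, 11 were highest in embryo, 5 in L1 and 0 in young adult. The young adult shares of nipi-3 and dcar-1 were 6.88-fold lower (4.66 to 10.4) and 3.78-fold lower (2.79 to 5.17) than in L1. elt-3 and dapk-1 were listed at 0 reads in all 3 libraries. Between L1 and embryo 1 of 11 compared was higher and 2 lower, beside 13.4% and 33% over all genes. In young adult over L1, 0 of 8 were higher and 5 lower, beside 14.5% and 14.2%, and between young adult and embryo, 0 of 12 were higher and 7 lower, beside 13.2% and 29.3%.

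**Figure D5:**
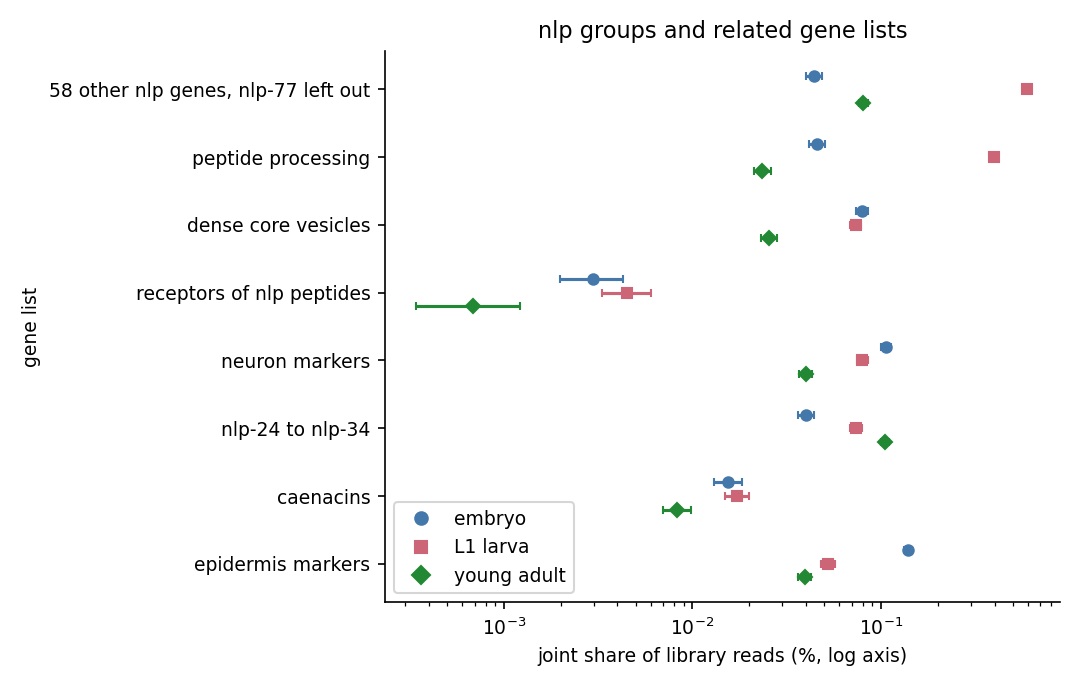
Joint share of library reads (percent, log axis) of the other nlp genes without nlp-77, the epidermal nlp genes and the related gene lists. The genes that control nlp-29 are not drawn. A circle stands for embryo, a square for L1 and a diamond for young adult, with bars for 95% exact binomial intervals. L1 is the highest point for the other nlp genes (0.595%) and peptide processing (0.398%). It is also highest for the caenacins (0.0173%) and receptors (0.00452%), where the L1 and embryo intervals overlap. Young adult is highest for the epidermal nlp genes (0.105%), which without nlp-24 and nlp-27 are highest in L1 (0.0438%). The L1 and embryo order of the dense core vesicle and neuron marker lists turns with TMM and DESeq2 factors. Without ribosomal protein and mitochondrial reads the L1 to embryo ratios of these 2 lists are 1.25 and 1.01.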

How the data were processed

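Poly(A) RNA of 3 libraries was read as native strands, with MinKNOW 2.1 and Albacore 2.0.1 per the labels' protocols; the submitters' processing notes name minimap2 2.14. How reads were assigned, the build, the annotation and the use of strand: not given in the sources used here. Per isoform row and library, as deposited by the authors, there are estimated counts, unscaled, with 1e-08 standing for 0. The deposited per-sample tables hold a coverage signal headed Cpm that equals these counts times 1.32672 in every library; it served only for symbols and this check.

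Estimated counts were summed per gene, divided by library totals and rounded for intervals, so sums of members can differ by 1 read. Log2 ratios have 0.5 read added. Positions, overlaps and current symbols come from Ensembl release 115 (WBcel235). The members, gene lists and comparisons were chosen with earlier results of these data known. Genes named are all epidermal members, the 14 other members with most reads, up to 4 members per comparison and direction with the bound farthest from 1, the 4 largest differences in leading isoform, and the 3 genes with most reads per related list. Other scalings, read minimums, thresholds and annotated rows alone were tried. Nothing in the labels tells how many cultures a library came from. Calculations were tested on simulated data and run in Python 3.11.15 (numpy 2.4.6, pandas 2.3.3, scipy 1.17.1, matplotlib 3.10.9). Factors for the other scalings came from edgeR 4.0.16 and DESeq2 1.42.0 under R 4.3.3; neither tool tested a gene.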

Additional observations from a re-analysis of the deposited data

How the results depend on the processing

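No paired analysis was possible because each stage had 1 library and no replicate numbers. Low counts limit the embryo side most: the median other nlp gene had 5 reads there, beside 7 in young adult and 56 in L1. Ratios to embryo therefore have wide intervals. Among the joint ratios of the 2 nlp groups, only leaving out nlp-24 and nlp-27 changed a direction. The L1 to embryo ratios of the dense core vesicle and neuron marker lists turned with TMM and DESeq2 factors. Without ribosomal protein and mitochondrial reads these 2 ratios were 1.25 (1.12 to 1.38) and 1.01 (0.92 to 1.11). With TMM factors the epidermal joint share was 3.37-fold higher in L1 and 4.55-fold higher in young adult than in embryo, and with DESeq2 factors 3.49-fold and 4.68-fold. The other nlp genes were 9.26-fold higher in L1 and 2.28-fold higher in young adult than in embryo with TMM, 9.59-fold and 2.35-fold with DESeq2, and their young adult to L1 ratio was 0.247 and 0.245. Without ribosomal protein and mitochondrial reads the epidermal ratios were 2.49 in L1 over embryo, 1.27 in young adult over L1 and 3.17 in young adult over embryo, and those of the other nlp genes 6.85, 0.232 and 1.59. These shifts follow from the scaling factors themselves.

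Without nlp-77, an alternative chosen after seeing the data, the ratios of the other nlp genes were 13.4, 0.136 and 1.82 in the same order, and the odds of an epidermal read 0.137, 10.5 and 1.44. Without nlp-24 and nlp-27, also chosen after seeing the data, the epidermal ratios were 1.24, 0.811 and 1.0, and the odds 0.245, 3.12 and 0.765, so the young adult to L1 ratio and the young adult to embryo odds turned. On rows with an annotated transcript name alone, far fewer reads remain, and nlp-26 and nlp-33 have no such row. The epidermal genes then had 3 reads in embryo, 7 in L1 and 47 in young adult. Their ratios were 2.39 (0.545 to 14.3), 3.65 (1.64 to 9.57) and 8.71 (2.8 to 43.8). The ratios of the other nlp genes were 17.1, 0.173 and 2.95, and the odds 0.14 (0.0311 to 0.861), 21.1 (9.34 to 55.8) and 2.95 (0.901 to 15.3). Of 14, 17 and 5 genes then compared, 12 were higher and 0 lower in L1 than in embryo (12.8% and 20.5% over all genes), 0 higher and 12 lower in young adult than in L1 (11.1% and 10.7%), and 3 higher and 0 lower in young adult than in embryo (11.2% and 18.5%).

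With a bound of 1.5-fold, 2 of 51 nlp genes were lower in L1 than in embryo, beside 44.6% of all genes, and 5 of 50 higher in young adult than in L1, beside 23.2%. The median log2 ratio of the epidermal genes was 2.56 with TMM and 2.61 with DESeq2 in L1 over embryo, and 1.3 and 1.34 in young adult over embryo. That of the other nlp genes was 4.6 and 4.65 in L1 over embryo, or 3.62 with 1 read added, and 1.37 and 1.41 in young adult over embryo, or 0.30 with a minimum of 10 reads. Over all alternative counts, joint ratios, odds and medians of the nlp groups, 50 values stayed within their set limits, 53 moved beyond them and 2 turned. Most of the 50 were counts and medians. Among joint ratios and odds, only the epidermal young adult to L1 ratio stayed within its limits, with TMM (1.35) and DESeq2 factors (1.34). Scaling of single genes, also added after seeing the data, left 126 of 137 calls as they were with TMM or DESeq2; nlp-38 alone lost a call, lower in young adult than in embryo, at a log2 ratio of -2.45 with TMM and -2.41 with DESeq2.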

Other observations

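Some genes that current RefSeq names call nlp carry another symbol in the deposited tables and so are outside the 68. nlp-49, deposited as crf-1, had 40.4 RPM in embryo, 452 in L1 and 32.3 in young adult. Its L1 share was 11.2-fold higher than in embryo (8.04 to 16), and its young adult share was 14-fold lower than in L1 (10.5 to 19). nlp-99 had 13.8 RPM in embryo, 189.8 in L1 and 14.3 in young adult, with an L1 share 13.7-fold higher than in embryo (7.85 to 26.3). nlp-101 had 1 read in embryo, 24 in L1 and 5 in young adult, and nlp-88 had 16, 31 and 7. These 4 genes had their highest share in L1, as 52 of the 59 other nlp genes did. nlp-23, nlp-25, nlp-32 and nlp-45 were listed at 0 reads in all 3 libraries.

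In the other direction, 5 of the 68 genes carry a symbol outside the nlp series in the current Ensembl annotation: nlp-37 (pdf-2), nlp-38 (mihp-1), nlp-42 (mihp-2), nlp-73 (cthd-1) and nlp-77 (srlf-1). A sixth, nlp-10, is spelled npl-10 there, which was read as a misspelling and kept with the nlp names. Without these 5, the other nlp genes took 0.0409% of the reads in embryo (0.0369 to 0.0452), 0.558% in L1 (0.544 to 0.573) and 0.0778% in young adult (0.0736 to 0.0823). Their joint share was then 13.7-fold higher in L1 than in embryo (12.3 to 15.2) and 7.17-fold lower in young adult than in L1 (6.74 to 7.63).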
